A study of Mus musculus with 24 samples.

Results

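MuRF1 knockdown was compared with a scrambled control in HL-1 cells that were not stretched. HL-1 is an established line of mouse atrial cardiomyocytes that keeps dividing in culture. All 6 libraries labelled MuRF1 KD and non-stretched and all 6 labelled control and non-stretched were taken by their labels, which gives 12 of the 24 libraries of the study. The knockdown cells had received an adenovirus expressing a short hairpin RNA against MuRF1 (Adsh_MuRF1), and the controls an adenovirus with a scrambled hairpin (Adsh_scrambled), each at 30 MOI. Harvest followed 48 h later. Cells of both groups had grown on coated flexible plates in Claycomb medium with serum and were then moved to serum-free DMEM. The other 12 libraries carry the same 2 viruses and were stretched cyclically for 60 min at 1 Hz before harvest, and they serve here for the test of whether the knockdown effect differed with stretch. The control cells had thus been given an adenovirus and a hairpin as well. The model is a transient knockdown with 1 hairpin in 1 cell line, and the submitters state a loss of protein that was not measured in these data.

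MuRF1, encoded by Trim63, is a RING finger ubiquitin ligase of striated muscle. It sits at the M-line and Z-disc of the sarcomere, binds titin, and marks contractile proteins such as troponin I and myosin heavy chain for breakdown by the proteasome, and it is best known for its rise in muscle atrophy. Its relatives MuRF2 (Trim55) and MuRF3 (Trim54) overlap with it in function, and MuRF1 has also been tied to transcription through partners such as thyroid hormone receptor, PPAR alpha and c-Jun.

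Levels are CPM, the deposited estimated counts relative to a scaled library size, which is the library's total count times its TMM factor. The factors ran from 0.94 to 0.97 in unstretched controls and from 1.02 to 1.06 in unstretched knockdown libraries. All levels and list sums below thus carry this difference in scaling between the groups. Since CPM is not per length, it is compared here only within a gene. Where 3 levels are given for a group they are the lowest, the median and the highest of its 6 libraries. A gene is said to rise or fall where edgeR's quasi-likelihood test over all tested genes gave a Benjamini-Hochberg adjusted p under 0.05. Fold changes are log2 values of knockdown over control, with their standard error (SE). The labels do not say whether the 6 libraries of a group came from separate cultures, so p-values measure only the spread between libraries, which may be technical. For edgeR's test that spread was estimated within the groups of all 24 libraries, the stretched ones included. Without control_stretched replicate 5 it called 8888 genes for knockdown without stretch, against 8325 with it.

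Control libraries held 38005729 to 51322730 counts in all and knockdown libraries 37705352 to 48037527. The genes above 0 numbered 16827 to 17316 and 17238 to 17553. Mitochondrially encoded transcripts, summed as scaled CPM, came to 2.57% to 3.38% of the scaled library size in controls and 2.39% to 3.60% in knockdown libraries. These are not plain shares of the counts. The first principal component held 53.6% of the variance over the 12 libraries and set all controls (27.3 to 30.8) apart from all knockdown libraries (-34.7 to -25.9). On the second component, which held 7.37% of the variance, knockdown replicate 4 (-22.9) stood apart from the other 5 knockdown libraries. It also had the highest mitochondrial level. That component split the controls too: replicates 1 to 3 lay at 7.73 to 15.0 and replicates 4 to 6 at -14.2 to -5.33. Knockdown replicates 1 to 3 lay at 4.84 to 10.1, and replicates 5 and 6 at -0.171 and 0.0280. What this split by replicate number reflects was not tested. All 6 controls share one middle number in their library codes and all 6 knockdown libraries another, with no meaning given. Should it mark a batch, knockdown and batch cannot be told apart. In bulk RNA, fewer cells of a type and less RNA per cell cannot be told apart either.

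Cardiomyocyte genes were present but uneven in this line. Tnnt2, Ryr2, Gata4, Tbx5, Gja1, Tnni3, Actc1, Nkx2-5 and Myl7 were all above 60 CPM in every control library. Myh6 was at 5.00 to 6.85 CPM and the atrial light chain Myl4 at 5.36 to 6.77 CPM. The atrial peptide gene Nppa was near the detection limit, at 0.328, 0.427 and 0.641 CPM in controls and 0.238, 0.400 and 0.530 CPM in knockdown libraries, groups that overlapped and did not pass the test (adjusted p = 0.483). Myh7 and Myl3 were too low to be tested.

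Trim63 itself was at 536, 641 and 707 CPM in the control libraries and 54.2, 55.7 and 57.4 CPM in the knockdown libraries. Every knockdown library lay far below every control. Its mean dropped from 640 ± 68.1 to 55.7 ± 1.17 CPM (SD, n = 6 each), 91.3% lower, with a two-sided exact permutation p of 0.00216 over 924 divisions of the libraries. That is the smallest p the design allows. Trim55, the gene of MuRF2, was at 32.1, 33.7 and 34.4 CPM in controls and 15.9, 16.7 and 17.3 CPM after knockdown and fell by 1.01 (log2; SE 0.05, adjusted p = 7.99e-17). Trim55 thus lay lower in every knockdown library as well. Trim54, the gene of MuRF3, was too low to be tested.

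Knockdown moved a large share of the transcriptome by small amounts. Of 14411 genes tested, 8325 passed the test (57.8%). Of these 4040 rose (28.0% of those tested) and 4285 fell (29.7%), and the median log2 fold change over all tested genes was 0.01. The scaling places the bulk of genes near 0, so this median and the near balance of rises and falls are largely set by it. Changes and list medians below are relative to that centre, and small ones depend on it most. The median size of change among the called genes was 0.31 on the log2 scale, a change of 23.7%. A change of more than 2-fold was found for 364 rises and 448 falls, which together are 9.75% of the calls. In 5442 genes (37.8% of those tested) the 6 knockdown values did not overlap the 6 control values. These 3 background shares, 57.8%, 28.0% and 29.7%, are what the counts of every gene group below have to be read against. Where edgeR's test gave 0 rises or 0 falls in a list, DESeq2's Wald test and limma-voom gave 0 in that direction as well. Without knockdown replicate 4, 8334 genes were called and 53.4% of them were rises, against 48.5% with it.

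**Figure D1:**
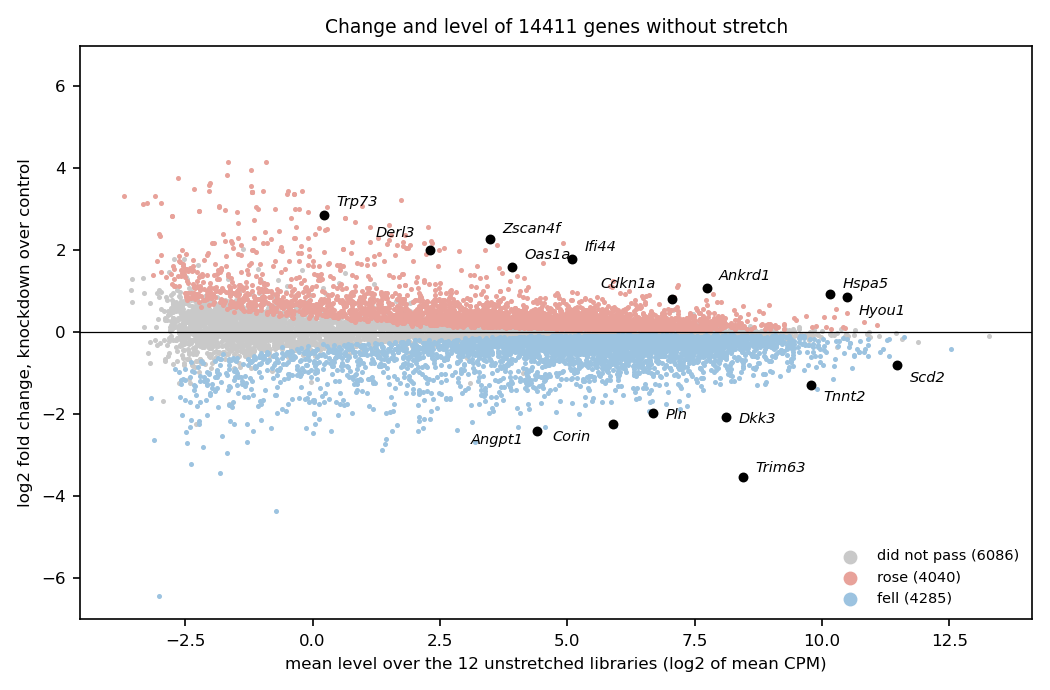
Log2 fold change of knockdown over control without stretch (vertical axis) against the log2 of the mean CPM over the 12 libraries (horizontal axis), 1 point for each of 14411 tested genes. Red points are the 4040 genes that rose, blue points the 4285 that fell and grey points those that did not pass. Black points are named genes: Trim63 lies at -3.52, Hspa5 at 0.93.

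Among genes whose average level over the 24 libraries was 2 or more on the log2 CPM scale and whose groups did not overlap, clone and model names aside, the largest fall after Trim63 was that of Scrg1 (2.68 on the log2 scale). Angpt1, the angiopoietin that activates the Tie2 receptor, dropped from a control median of 35.9 CPM to 6.75 CPM. Adamtsl2 and Mgp, a matrix protein that restrains calcification, fell by 2.39 and 2.28 on the log2 scale. Members of the Wnt list were in this set too: Wif1, a secreted Wnt inhibitor, fell by 2.30 and Dkk3 by 2.07 on the log2 scale. Hdc, the enzyme that makes histamine, fell by 2.32 on the log2 scale, and Cma1, a chymase, by 2.34. Corin, the protease that cuts pro-ANP to its active form, fell by 2.24 on the log2 scale. Also among the 15 largest falls were Cyp1b1, Abca12, Plac1, Chrna4 and Mylk2, which fell by 2.06 to 2.18 on the log2 scale.

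The 15 largest rises by the same rule were of other kinds. Zscan4f, Zscan4e and Zscan4c, members of a gene family known from early embryos, rose by 2.27, 2.05 and 1.99 on the log2 scale. Derl3, which serves the disposal of misfolded proteins of the endoplasmic reticulum (ER), rose by 2.01 on the log2 scale. Ifi44, Oas2, Rsad2, Oas1a, Isg20 and Cxcl10, all known interferon-induced genes, rose by 1.41 to 1.78 on the log2 scale. Hrk, a BH3-only promoter of apoptosis, rose by 1.90, and Thbd, which encodes thrombomodulin, by 1.51 on the log2 scale. Shisa8, Myo5c and Cited1 completed the set with rises of 1.62 to 2.14 on the log2 scale.

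By absolute CPM the order was different. The 10 largest gains included the ER chaperones Hyou1, Hspa5, Hsp90b1, Calr, Pdia6 and Pdia3, beside B2m, Rnf213, Ubb and Hsp90aa1. The 10 largest losses were those of Eef1a1, Scd2, Ctsd, Fn1, Prph, Pam, Actg1, Acta2, Tnnt2 and Sparc. Eef1a1, a translation elongation factor, was at 6569, 6768 and 7100 CPM in controls and 4881, 5011 and 5581 CPM after knockdown. Scd2, a fatty acid desaturase, was at 3330, 3635 and 3815 CPM in controls and 1964, 2034 and 2248 CPM after knockdown. Pam, which amidates peptide hormones and is abundant in atrial granules, was at 1292, 1401 and 1499 CPM in controls and 503, 528 and 562 CPM after knockdown. None of these 3 genes had overlapping groups.

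Stretches upstream of 6 rising genes are shown because the 2 groups with the highest shares of rises among the larger lists, ER folding and interferon-stimulated genes, are each known for a shared promoter element. All are 250 bases directly before the RefSeq start site on GRCm38.p6, read 5′ to 3′ on the gene's strand. Capitals in the first 4 mark matches, on either strand, to the ER stress element searched as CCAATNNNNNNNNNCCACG, which is known to bind ATF6 and NF-Y. Hspa5 lies on the plus strand at chr2:34771840-34772089, Hsp90b1 on the minus strand at chr10:86705445-86705694, Pdia6 on the plus strand at chr12:17266339-17266588 and Derl3 on the plus strand at chr10:75893148-75893397.
Hspa5: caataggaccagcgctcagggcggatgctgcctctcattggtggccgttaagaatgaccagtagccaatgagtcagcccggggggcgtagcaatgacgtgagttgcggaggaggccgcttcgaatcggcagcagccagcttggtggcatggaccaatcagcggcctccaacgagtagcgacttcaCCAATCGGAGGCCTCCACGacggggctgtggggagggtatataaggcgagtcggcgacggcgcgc
Hsp90b1: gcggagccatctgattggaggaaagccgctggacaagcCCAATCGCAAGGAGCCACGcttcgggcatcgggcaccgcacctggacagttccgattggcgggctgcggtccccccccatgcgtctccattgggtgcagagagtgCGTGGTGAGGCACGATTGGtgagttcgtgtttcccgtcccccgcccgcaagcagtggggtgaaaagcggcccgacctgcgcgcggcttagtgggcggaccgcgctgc
Pdia6: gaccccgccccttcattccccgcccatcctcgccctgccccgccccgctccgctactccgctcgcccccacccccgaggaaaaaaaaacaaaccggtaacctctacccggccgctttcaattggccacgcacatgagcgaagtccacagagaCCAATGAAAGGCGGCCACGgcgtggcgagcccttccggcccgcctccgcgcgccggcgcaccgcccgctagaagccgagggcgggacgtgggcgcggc
Derl3: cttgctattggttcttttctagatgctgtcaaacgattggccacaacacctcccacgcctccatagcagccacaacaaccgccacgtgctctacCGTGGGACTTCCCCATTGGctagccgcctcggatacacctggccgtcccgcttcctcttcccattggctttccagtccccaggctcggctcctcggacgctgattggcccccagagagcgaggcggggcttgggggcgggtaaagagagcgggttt
In the last 2 the capitals mark GAAANNGAAA, searched on both strands as the core of the interferon-stimulated response element that interferon-activated factors are known to bind. Oas1a lies on the minus strand at chr5:120907526-120907775, where 2 overlapping matches run together, and Rsad2 on the minus strand at chr12:26456453-26456702.
Oas1a: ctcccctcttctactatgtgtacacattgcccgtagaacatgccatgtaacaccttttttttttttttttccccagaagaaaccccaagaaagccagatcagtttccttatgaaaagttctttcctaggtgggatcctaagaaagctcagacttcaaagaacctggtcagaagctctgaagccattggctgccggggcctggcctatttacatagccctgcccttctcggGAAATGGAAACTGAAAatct
Rsad2: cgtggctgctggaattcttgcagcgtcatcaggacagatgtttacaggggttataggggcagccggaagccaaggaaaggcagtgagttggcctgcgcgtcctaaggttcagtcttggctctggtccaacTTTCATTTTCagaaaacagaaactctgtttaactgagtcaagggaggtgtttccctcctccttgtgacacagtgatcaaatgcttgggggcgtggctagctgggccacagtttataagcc

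A RefSeq promoter could be matched for 10541 of the 14411 tested genes. The ER stress element was found in 9 of the 22 promoters matched for the ER folding list (40.9%) and in 19 of all 10541 (0.18%). All 9 of those list genes rose. Of the 19 genes with the element, 14 rose and 1 fell, and their median log2 fold change was 0.42. The 9 list genes are among these 19 and among the 14 rises, so the 2 counts are not separate. The interferon element was found in 16 of 34 promoters of the interferon list (47.1%) and in 333 of all 10541 (3.16%). Of those 333 genes 106 rose (31.8%, near the 28.0% of all tested genes) and 78 fell. They include the 16 list genes, of which 14 rose and 0 fell. For the integrated stress response list, TGATGNAA, searched on both strands as the element that ATF4 and C/EBP factors are known to bind, was found in 6 of 28 promoters (21.4%) and in 275 of all 10541 (2.61%). Of those 6 list genes 3 rose, 2 fell and 1 did not pass. A match is a description of these letters in this window and shows no binding.

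Genes for folding in the ER rose together. Of 26 tested members of the unfolded protein response list, 23 rose (88.5%, against 28.0% of all tested genes), 0 fell and 3 did not pass, with a median log2 fold change of 0.38. Their summed level was 8208 to 8533 CPM over the control libraries and 11511 to 12552 CPM over the knockdown libraries. Hspa5, the ER chaperone BiP, was at 769, 781 and 801 CPM in controls and 1403, 1498 and 1622 CPM after knockdown. It lay higher in each knockdown library than in any control and rose by 0.93 (log2; SE 0.04, adjusted p = 1.12e-17). Derl3, whose promoter is printed above, was at 1.13, 2.01 and 2.95 CPM in controls and 7.26, 7.61 and 9.73 CPM after knockdown and rose by 2.01 (log2; SE 0.14, adjusted p = 2.01e-12). Xbp1, the transcription factor downstream of the sensor IRE1, was at 62.6, 63.7 and 66.4 CPM in controls and 111, 113 and 124 CPM after knockdown. Again no knockdown library fell into the control range. Hyou1, an HSP70-type ER chaperone, rose by 0.87, the ER HSP90 gene Hsp90b1 by 0.56, Sdf2l1 by 0.95 and the disulfide isomerase gene Pdia6 by 0.67 on the log2 scale. Calreticulin (Calr) rose by 0.46 and Pdia3 by 0.39 on the log2 scale.

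The integrated stress response, in which phosphorylated eIF2 alpha lets ATF4 drive amino acid genes, moved in part. Of 33 tested genes 21 rose (63.6%), 5 fell and 7 did not pass (median log2 fold change 0.14). Sesn2, a stress-induced inhibitor of mTORC1, rose by 0.78 on the log2 scale, from a control median of 58.5 CPM to 102 CPM. Slc7a11, the cystine transporter, rose by 1.22 and Ppp1r15a, which guides dephosphorylation of eIF2 alpha, by 0.56 on the log2 scale. The serine pathway gene Shmt2 rose by 0.45. Fgf21, a stress hormone often placed in the same response, went the other way: it was at 11.9, 14.8 and 16.1 CPM in controls and 7.13, 8.44 and 8.87 CPM after knockdown and fell by 0.80 (log2; SE 0.07, adjusted p = 1.09e-10), with no overlap. Slc38a2 and Ddit4 fell by 0.26 and 0.23 on the log2 scale.

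Cytosolic chaperones did not follow the ER ones. Of 29 heat shock and cochaperone genes 4 rose, 19 fell (65.5%, against 29.7% of all tested genes) and 6 did not pass. Cryab, the small heat shock protein alpha B-crystallin of the Z-disc, was at 258, 278 and 289 CPM in controls and 121, 128 and 135 CPM after knockdown. Hspb2 and Hspb6, further small heat shock proteins of muscle, fell by 1.06 and 0.66 on the log2 scale. The cytosolic HSP90 genes parted: Hsp90ab1 fell by 0.40 and Hsp90aa1 rose by 0.37 on the log2 scale.

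Protein disposal genes were mixed. Of 35 proteasome genes 9 rose (25.7%), 3 fell and 23 did not pass, a share of rises near the background. With no filter on low counts the proteasome rises came to 16. Psmd8 rose by 0.48 on the log2 scale, the other rises named by the rule (Psmd14, Psma3 and Psme3) by 0.15 to 0.29. Among 23 other muscle ubiquitin ligases and ubiquitin genes, 5 rose and 12 fell. Fbxo32 (atrogin-1), the ligase that rises with MuRF1 in muscle atrophy, was at 41.1, 43.0 and 46.7 CPM in controls and 18.5, 19.1 and 21.4 CPM after knockdown. Its groups did not overlap and it fell by 1.15 (log2; SE 0.05, adjusted p = 1.58e-17). Fbxl22, Asb2 and Cblb, ligase components of muscle, fell by 1.51, 0.88 and 0.84 on the log2 scale. Traf6 and Trim32 rose by 0.27 and 0.19. In the lysosome and autophagy list 21 of 44 genes fell (47.7%) and 12 rose, with falls of the cathepsin genes Ctsd, Ctsa and Ctsb and a rise of Cd63. Ctsd fell by 0.57, Ctsa by 0.44 and Ctsb by 0.40 on the log2 scale, and Cd63 rose by 0.24. Without control replicate 3 the number of lysosomal rises was 7.

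Ribosome assembly genes mostly rose. Of 34 assembly genes 28 rose (82.4%), 0 fell and 6 did not pass (median log2 fold change 0.29). Nolc1, a nucleolar scaffold, was at 142, 146 and 149 CPM in controls and 182, 187 and 191 CPM after knockdown, with no overlap. Rrp12, Tsr1 and Wdr43, all factors of the small subunit, rose by 0.58, 0.52 and 0.51 on the log2 scale. Of 65 ribosomal protein genes 1 rose and 22 fell (33.8%), and 42 did not pass, a share of falls near the 29.7% of all tested genes. Falls here ran from 14 with no filter to 40 without control_stretched replicate 5, so their number depends on the fit. The 1 rise was Rpl27 (0.40 on the log2 scale). Members of this family share reads with many pseudogenes, and how the counting split them is not given in the sources used here.

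**Figure D2:**
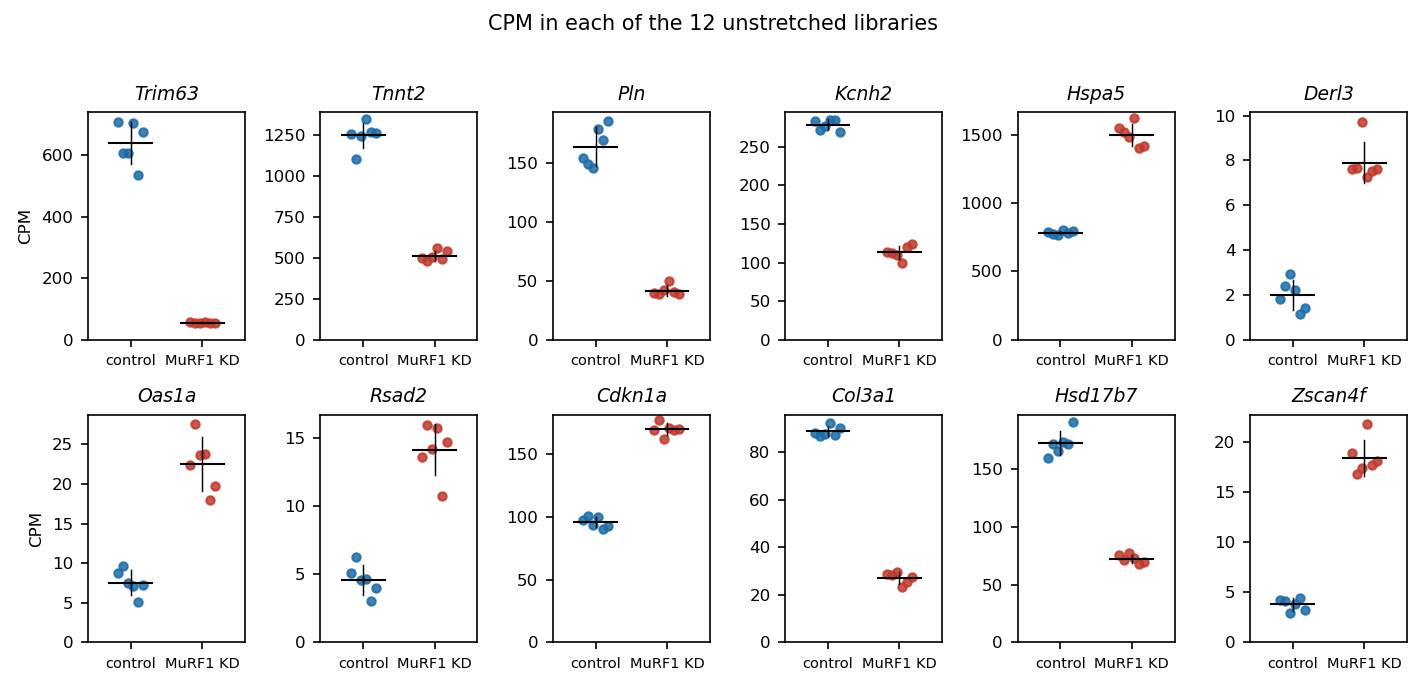
CPM of 12 genes in each unstretched library (vertical axes, starting at 0), 6 control and 6 knockdown libraries each. Points are libraries, horizontal lines means and vertical lines 1 SD to each side. In none of the 12 genes do the groups overlap. The rule for the largest changes requires this of Trim63, Derl3, Oas1a, Rsad2 and Zscan4f, which it names. Trim63 drops from a median of 641 to 55.7 CPM and Hspa5 goes from 781 to 1498 CPM.

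Interferon-stimulated genes were higher in the knockdown libraries. Of 46 listed genes 43 were tested, 36 rose (83.7%, against 28.0% of all tested genes), 1 fell and 6 did not pass, with a median log2 fold change of 0.60. Their summed level was 2926 to 3780 CPM in controls and 4305 to 5056 CPM after knockdown. Oas1a, an oligoadenylate synthetase that senses double-stranded RNA, was at 5.04, 7.33 and 9.60 CPM in controls and 18.0, 23.0 and 27.6 CPM after knockdown. Rsad2, the antiviral protein viperin, was at 3.01, 4.58 and 6.29 CPM in controls and 10.7, 14.4 and 15.9 CPM after knockdown and rose by 1.63 (log2; SE 0.19, adjusted p = 9.36e-08). Ifi44 was at 8.63, 16.1 and 18.9 CPM in controls and 38.4, 55.7 and 67.6 CPM after knockdown. Levels varied between the libraries of each group. The groups did not overlap in any of the 3, but the rule for the largest rises, which named them, requires this. Oas2 rose by 1.69, Cmpk2 by 1.32 and the guanylate-binding protein gene Gbp2 by 0.78 on the log2 scale. Irf9, a DNA-binding factor of the interferon response, rose by 0.30. Ifit2 was the 1 member that fell (0.24 on the log2 scale).

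Both groups had received their adenovirus at the same 30 MOI. Genes of small RNA processing and silencing gave 5 rises and 8 falls among 16 tested (median -0.08, or 0.02 after removal of GC content and length). Adar, an RNA editing enzyme with an interferon-induced form, rose by 0.39 and Ago4 by 0.62 on the log2 scale, while Ago2 fell by 0.23 and Tnrc6b by 0.33. Tnrc6b was at -0.22 with the authors' scaling factors and no longer passed edgeR's test (adjusted p = 0.0556). Leaving out knockdown replicate 3 took the rises of this list to 3.

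Of 15 antigen presentation genes 6 rose (40.0%), 3 fell and 6 did not pass. B2m, the light chain of MHC class I, was at 1573, 1660 and 1698 CPM in controls and 1740, 1892 and 2486 CPM after knockdown, the highest value being that of knockdown replicate 4. H2-Q4, H2-T22, Psmb9 and Tap1 rose by 0.31 to 0.47 on the log2 scale, and Tap2 fell by 0.47. MHC class I genes are near-identical copies, so the split of reads between H2-Q4 and H2-T22 and their relatives is uncertain. In the cytokine and NF-kB list 10 of 30 rose (33.3%) and 5 fell. Cxcl10, an interferon-induced chemokine, rose by 1.41 and the pattern receptors Tlr3 and Tlr2 by 0.74 and 0.77 on the log2 scale. Cxcl12, Vcam1 and Il15 fell by 1.09, 0.51 and 1.76. The median of that list was 0.03 and turned to -0.01 without control replicate 5.

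Contractile genes fell. In the thin filament list 19 of 21 tested genes fell (90.5%, against 29.7% of all tested genes), 1 rose and 1 did not pass, with a median log2 fold change of -0.64. Summed, the list spanned 5765 to 6145 CPM in controls and 3855 to 4134 CPM after knockdown. Tnnt2, cardiac troponin T, was at 1108, 1263 and 1349 CPM in controls and 480, 503 and 560 CPM after knockdown and fell by 1.28 (log2; SE 0.06, adjusted p = 5.99e-16). Tnni3, cardiac troponin I and a known substrate of MuRF1, was at 142, 153 and 163 CPM in controls and 43.7, 48.6 and 53.3 CPM after knockdown. Both genes were lower in every knockdown library. Tnni1, the slow skeletal and fetal troponin I, fell by 1.61, cardiac actin Actc1 by 1.32, tropomodulin Tmod1 by 0.79 and smooth muscle actin Acta2 by 0.58 on the log2 scale. The 1 rise was that of the nebulin gene Neb, by 0.22, with groups that overlapped. With the authors' scaling factors Neb was at 0.12 on the log2 scale (adjusted p = 0.22 in edgeR's test).

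Thick filament genes split. Of 14 tested 7 fell (50.0%), 2 rose and 5 did not pass. Myl7, the atrial regulatory light chain, was at 212, 223 and 240 CPM in controls and 64.9, 69.8 and 77.5 CPM after knockdown and fell by 1.68 (log2; SE 0.07, adjusted p = 2.8e-16). Myh6, the alpha myosin heavy chain, fell by 1.48 from its low level and Mylk3, the cardiac myosin light chain kinase, by 0.99 on the log2 scale. Myom1, a myomesin that crosslinks thick filaments at the M-line, rose: it was at 4.18, 4.65 and 6.11 CPM in controls and 7.01, 8.02 and 9.19 CPM after knockdown. The ventricular light chain Myl2 also passed as a rise, at no more than 0.379 CPM in any library.

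Z-disc and titin-linked genes mostly fell but held the clearest exception. Of 25 tested 17 fell (68.0%), 5 rose and 3 did not pass. Cmya5 and Ldb3, which encode myospryn and cypher, fell by 1.45 and 1.16, and the titin-binding LIM protein gene Fhl2 by 0.85 on the log2 scale. Ankrd1, the stretch-induced ankyrin repeat protein CARP that binds the titin N2A region, was at 114, 134 and 167 CPM in controls and 263, 291 and 308 CPM after knockdown. Every knockdown library lay above every control and Ankrd1 rose by 1.08 (log2; SE 0.07, adjusted p = 4.67e-13). Flnc (filamin C), Nrap and Pdlim7 rose by 0.19 to 0.33 on the log2 scale.

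Of the reported partners of MuRF1, 8 of 18 tested fell (44.4%), 2 rose and 8 did not pass. With DESeq2 size factors the rises were 5. The thyroid hormone receptor gene Thra was at 48.0, 49.0 and 50.5 CPM in controls and 25.2, 27.9 and 29.5 CPM after knockdown. Jun, whose protein MuRF1 is reported to restrain, was at 46.1, 57.5 and 72.7 CPM in controls and 77.3, 81.2 and 112 CPM after knockdown. Foxo1, a factor known to drive Trim63 itself in atrophy, rose by 0.38 on the log2 scale. In each of these 3 genes the groups stayed apart.

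Calcium handling genes were mostly lower. Of 22 tested genes 14 fell (63.6%), 4 rose and 4 did not pass. Pln, phospholamban, the brake on the calcium pump SERCA, was at 146, 162 and 186 CPM in controls and 38.8, 40.2 and 50.3 CPM after knockdown and fell by 1.97 (log2; SE 0.09, adjusted p = 1.31e-15). Ryr2, the calcium release channel, was at 262, 271 and 280 CPM in controls and 113, 125 and 136 CPM after knockdown. No value of either gene was shared between the groups. Itpr1, an inositol trisphosphate receptor, fell by 0.59 and Atp2b4, a calcium pump of the plasma membrane, by 1.07 on the log2 scale. The rises (Calr, Atp2b1, Asph and Fkbp1b) were led by the ER chaperone Calr, and the other 3 had overlapping groups and rose by 0.11 to 0.21 on the log2 scale. Fkbp1b lost its call in edgeR's test without knockdown replicate 2 or control replicate 1 or 2 (adjusted p = 0.0733 to 0.1), with only the groups compared (0.0566) and with the authors' factors, where it was at 0.13 on the log2 scale (adjusted p = 0.43).

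Ion channel genes fell as well. Of 25 tested 16 fell (64.0%), 3 rose and 6 did not pass, and their summed level spanned 971 to 1024 CPM in controls and 480 to 533 CPM after knockdown. Kcnh2, which carries the rapid delayed rectifier current, was at 269, 280 and 285 CPM in controls and 99.2, 113 and 124 CPM after knockdown and fell by 1.30 (log2; SE 0.05, adjusted p = 3.29e-17). It was lower in all knockdown libraries. Kcnj5, a subunit of the atrial acetylcholine-gated channel, fell by 1.40 and Cacna1c, the L-type calcium channel, by 1.07 on the log2 scale. Kcne1, a small subunit of the slow delayed rectifier, rose by 0.39, but by 0.14 with the authors' scaling factors (adjusted p = 0.112 in edgeR's test). Receptors of the heart showed 11 falls and 2 rises among 18 tested. Chrm2, the muscarinic receptor of the heart, was at 223, 242 and 283 CPM in controls and 78.9, 85.7 and 89.7 CPM after knockdown. The endothelin receptor gene Ednra fell by 1.76 and Pde4b by 0.66 on the log2 scale, and the beta-1 adrenergic receptor gene Adrb1 rose by 0.29.

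Cell contacts and the membrane anchor of the sarcomere were lower too. In the intercalated disc list 16 of 20 genes fell (80.0%), 3 rose and 1 did not pass. Cdh2, N-cadherin, was at 609, 626 and 664 CPM in controls and 302, 309 and 317 CPM after knockdown and fell by 1.03 (log2; SE 0.03, adjusted p = 1.35e-21). Desmoplakin (Dsp) was at 764, 776 and 800 CPM in controls and 344, 374 and 393 CPM after knockdown. Gja1, connexin 43, was at 94.4, 99.9 and 106 CPM in controls and 54.2, 56.9 and 59.5 CPM after knockdown. In all 3 genes every knockdown library was lower than every control. Cxadr, the receptor that coxsackie viruses and many adenoviruses use to enter cells, was at 27.8, 29.3 and 31.9 CPM in controls and 49.5, 50.3 and 58.5 CPM after knockdown and rose by 0.82 (log2; SE 0.05, adjusted p = 5.67e-14). Desmocollin Dsc2 and connexin 45 (Gjc1) rose by 0.67 and 0.27 on the log2 scale. In the dystrophin complex 13 of 16 genes fell (81.2%) and 1 rose. Dystroglycan (Dag1), caveolin 3 (Cav3) and dysferlin (Dysf) fell by 0.82, 1.16 and 0.98 on the log2 scale. The 1 rise was that of dystrophin itself, Dmd, by 0.27, with overlapping groups.

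Of 25 tested cardiac transcription factors 18 fell (72.0%), 5 rose and 2 did not pass. Myocd, the SRF cofactor myocardin, was at 75.2, 79.3 and 80.8 CPM in controls and 42.2, 44.4 and 47.4 CPM after knockdown. Shox2, a pacemaker factor, fell by 0.82, Hand2 by 0.60, Gata4 by 0.51, Tbx5 by 0.69 and Prrx1 by 1.29 on the log2 scale. Hey2, Tbx3 and Tbx2, all known as repressors, went up. Hey2 was at 1.03, 1.22 and 1.41 CPM in controls and 3.70, 4.13 and 4.45 CPM after knockdown and rose by 1.75 (log2; SE 0.10, adjusted p = 3.48e-14). Tbx3 and Tbx2, which hold back working myocardium genes in conduction tissue, rose by 0.95 and 1.07 on the log2 scale. Nkx2-5 rose by 0.25.

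**Figure D3:**
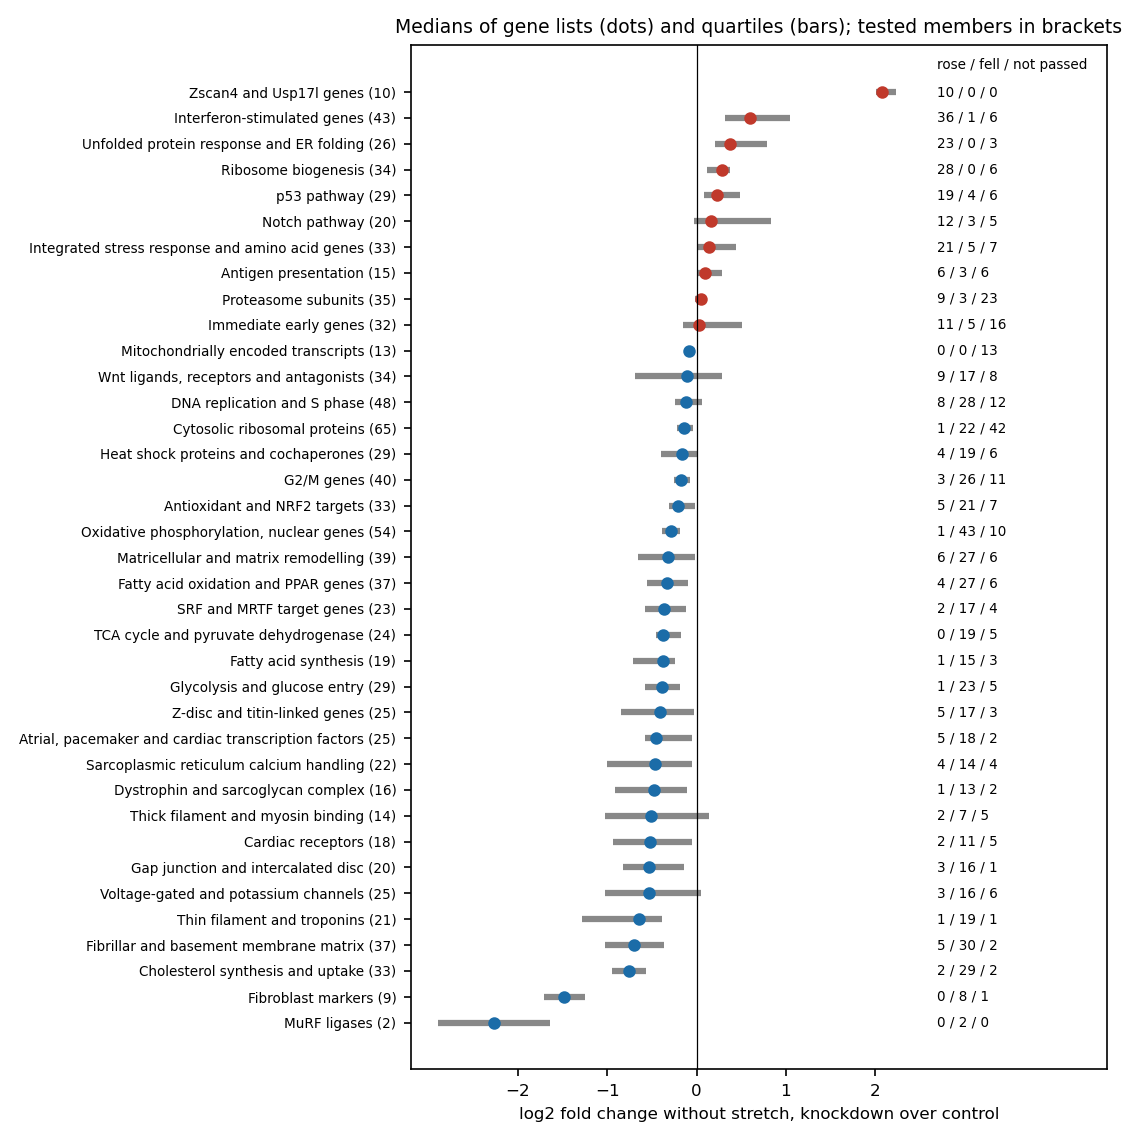
Median log2 fold change without stretch of 37 gene lists (dots), with the lower and upper quartiles of their tested members (bars). Red dots are medians above 0 and blue dots medians below 0; the columns of numbers give members that rose, fell and did not pass. Thin filament genes lie at -0.64, cholesterol genes at -0.76 and interferon-stimulated genes at 0.60.

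Markers of hypertrophy did not move as 1 group. Of 15 tested 8 rose and 5 fell, with a median of 0.12 that turned to -0.17 with no filter on low counts. Nppb, which encodes BNP, was low but apart, at 0.146, 0.312 and 0.355 CPM in controls and 0.602, 0.875 and 1.39 CPM after knockdown. Gdf15, a stress cytokine, was at 52.8, 62.4 and 69.2 CPM in controls and 104, 112 and 128 CPM after knockdown, and Rcan1, a calcineurin target, rose by 0.31 on the log2 scale. Ctgf (CCN2) was at 49.2, 66.5 and 84.4 CPM in controls and 107, 118 and 141 CPM after knockdown. Corin, at 91.8, 98.5 and 103 CPM in controls, was at 19.2, 20.4 and 23.3 CPM after knockdown, and Furin, another convertase, fell by 0.71 on the log2 scale. All 6 genes had groups that did not overlap, which the rule for the largest falls requires of Corin.

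Genes controlled by SRF and its actin-linked cofactors were mostly lower: 17 of 23 fell (73.9%), 2 rose and 4 did not pass. Myl9, a smooth muscle light chain, was at 378, 390 and 409 CPM in controls and 180, 190 and 202 CPM after knockdown, and Cnn2 and the cytoplasmic actin Actg1 fell by 0.70 and 0.49 on the log2 scale. The list of YAP and TEAD genes, which holds regulators beside targets, gave 5 rises and 9 falls among 23, and its sum spanned 2071 to 2386 CPM in controls and 2490 to 2671 CPM after knockdown. Amotl2, a YAP target that feeds back on the pathway, was at 80.1, 89.9 and 95.8 CPM in controls and 181, 202 and 207 CPM after knockdown and rose by 1.16 (log2; SE 0.04, adjusted p = 5.04e-19). Cyr61 (CCN1), in both lists, rose by 0.75 with wide and overlapping groups, at 111, 184 and 279 CPM and 266, 287 and 404 CPM. Ajuba, a LIM protein that restrains LATS kinases, rose by 0.48 on the log2 scale, and Tead3, Vgll4 and Axl fell by 0.43, 0.43 and 0.22.

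Among 32 immediate early genes, induced within minutes by growth factors or stretch, 11 rose (34.4%), 5 fell and 16 did not pass. Atf3, a stress-induced repressor, was at 25.3, 36.4 and 40.7 CPM in controls and 78.0, 82.9 and 93.6 CPM after knockdown and rose by 1.26 (log2; SE 0.08, adjusted p = 2.73e-13). Arc and Jund were at 46.3, 47.9 and 51.2 CPM and 172, 190 and 222 CPM in controls, and at 85.6, 92.2 and 103 CPM and 306, 322 and 353 CPM after knockdown. These 3 genes did not overlap between groups. Fosl1 rose by 0.77 and Fosl2 fell by 0.61 on the log2 scale. The falls of this list numbered 8 without knockdown replicate 6 or without control replicate 5. MAP kinase feedback genes likewise split, with 7 rises and 5 falls among 16. The JNK and p38 phosphatases Dusp16 and Dusp8 rose by 0.80 and 0.60, and Dusp6, the ERK phosphatase, and Spry2, a feedback inhibitor of receptor kinases, fell by 0.67 and 0.52 on the log2 scale.

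Sterol and fatty acid synthesis genes fell together. In the cholesterol list 29 of 33 genes fell (87.9%), 2 rose and 2 did not pass, with a median log2 fold change of -0.76. The summed level spanned 7932 to 8914 CPM in controls and 4868 to 5191 CPM after knockdown. Hsd17b7, an enzyme of the pathway, was at 160, 172 and 191 CPM in controls and 67.8, 72.1 and 77.2 CPM after knockdown and fell by 1.25 (log2; SE 0.05, adjusted p = 1.75e-18). Every knockdown library was below every control. The export pump gene Abca1, which LXR rather than SREBP is known to drive, fell by 0.80 on the log2 scale. Insig2 and Scap, which hold and escort SREBP, were the rises, by 0.09 each on the log2 scale, with overlapping groups. By edgeR's test Insig2 lost its call without knockdown replicate 1 or 3 or control replicate 1, 2 or 3 (adjusted p = 0.0614 to 0.0927), with the authors' factors (0.0604), with only the groups compared (0.0617) and after removal of GC content and length, where it was at 0.04 on the log2 scale (adjusted p = 0.248). Scap lost its call without any 1 library other than knockdown replicate 4 and control replicates 1 and 3, with only the groups compared and with the replicate block (adjusted p = 0.0519 to 0.119 in edgeR's test). The sterol element TCACNCCAC was found in 1 of 23 promoters matched for this list (4.35%) and in 135 of all 10541 (1.28%). In fatty acid synthesis 15 of 19 fell and 1 rose. The lipid phosphatase gene Lpin1, malic enzyme (Me1) and the desaturases Scd1 and Fads1 fell by 1.07, 0.73, 0.92 and 0.61 on the log2 scale.

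Transcripts of fuel metabolism were mostly lower. Of 37 fatty acid oxidation genes 27 fell (73.0%), 4 rose and 6 did not pass. Cpt1a, the gate for entry of fatty acids into mitochondria, was at 214, 220 and 229 CPM in controls and 107, 115 and 120 CPM after knockdown and fell by 0.95 (log2; SE 0.03, adjusted p = 2.89e-20). Cd36, the fatty acid transporter, fell by 1.67, Acadl by 0.65 and Pdk4, which turns off glucose oxidation, by 1.06 on the log2 scale. Cpt1c and Acot2 rose by 0.55 and 0.62. In glycolysis 23 of 29 fell (79.3%) and 1 rose. Hk1, which commits glucose, was at 167, 171 and 176 CPM in controls and 97.7, 103 and 112 CPM after knockdown. Aldoc fell by 1.47, Eno3, the muscle enolase, by 0.97 and Gpi1 by 0.72 on the log2 scale. Glycogen genes gave 11 falls and 3 rises among 20, and the phosphorylase Pygb, glycogenin (Gyg) and the branching enzyme Gbe1 fell by 1.07, 0.90 and 0.81. In the TCA cycle 19 of 24 fell (79.2%) and 0 rose, and Cs, Idh2 and Pcx fell by 0.40, 0.57 and 0.78 on the log2 scale.

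Nuclear and mitochondrial genes of the respiratory chain differed in their counts. Of 54 nuclear genes 43 fell (79.6%), 1 rose and 10 did not pass, with a median log2 fold change of -0.29. Atp5b, the beta subunit of ATP synthase, was at 1954, 1966 and 2050 CPM in controls and 1364, 1414 and 1490 CPM after knockdown. Atp5a1 and Ndufv1 fell by 0.47 and 0.34 on the log2 scale, and Cox6a2, the heart and muscle form of its subunit, rose by 0.21. None of the 13 mitochondrially encoded genes passed edgeR's test, and DESeq2's Wald test and limma-voom called 0 of them. Their summed level spanned 25674 to 33769 CPM in controls and 23877 to 36029 CPM after knockdown, the highest being knockdown replicate 4. After removal of GC content and length 5 of them were called as falls. Antioxidant genes gave 21 falls and 5 rises among 33: the secreted enzymes Gpx3 and Sod3 fell by 1.29 and 1.67, and Gpx1 rose by 0.50 on the log2 scale. Creatine and adenylate kinase genes gave 4 falls and 1 rise among 7. Gamt, which makes creatine, fell by 1.19 and Ak1 by 0.83 on the log2 scale, and Ak4 rose by 0.53.

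The p53 list rose in the majority: 19 of 29 tested genes rose (65.5%), 4 fell and 6 did not pass (median log2 fold change 0.23). Cdkn1a, the cell cycle inhibitor p21, was at 90.6, 95.5 and 101 CPM in controls and 162, 169 and 177 CPM after knockdown and rose by 0.82 (log2; SE 0.03, adjusted p = 3.12e-18). No control library reached the lowest knockdown value. Trp73, the p53 relative, was at 0.160, 0.233 and 0.431 CPM in controls and 1.78, 1.96 and 2.59 CPM after knockdown, low levels with no overlap. Fas, the death receptor, and Sesn1, both known p53 targets, fell by 0.32 and 0.32 on the log2 scale. Ccnd1, cyclin D1, fell by 0.72.

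Cell cycle genes moved little in size. In the G2/M list 26 of 40 fell (65.0%) and 3 rose, with a median of -0.17. Racgap1 was at 491, 507 and 517 CPM in controls and 396, 413 and 419 CPM after knockdown, and Kif20a, Tpx2 and Cdc25b fell by 0.28, 0.27 and 0.41 on the log2 scale. In the replication list 28 of 48 fell (58.3%) and 8 rose. Rrm2, a subunit of ribonucleotide reductase, and the helicase subunit Mcm6 fell by 0.42 and 0.32. Cyclin E1 (Ccne1) and E2f2, which act at entry into S phase, rose by 0.38 and 0.24 on the log2 scale. Of 22 cyclin D, kinase and inhibitor genes 7 rose and 9 fell. Inhibitors were found on both sides: Cdkn1c (p57), Cdkn2c (p18) and Cdkn2d (p19) fell by 1.28, 0.59 and 0.46 on the log2 scale, against the rise of Cdkn1a. Among 27 apoptosis regulators 8 rose and 11 fell. BH3-only genes likewise took both directions. Hrk was at 1.54, 2.09 and 2.27 CPM in controls and 6.54, 7.40 and 8.08 CPM after knockdown, and Bcl2l11 (Bim) rose by 0.49. Bmf was at 16.4, 18.4 and 19.5 CPM in controls and 5.54, 6.07 and 6.54 CPM after knockdown, and the survival gene Bcl2l1 fell by 0.42 on the log2 scale.

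Matrix genes fell strongly. Of 37 tested matrix genes 30 fell (81.1%), 5 rose and 2 did not pass, with a median log2 fold change of -0.70 and a sum of 11139 to 11385 CPM in controls and 6283 to 7289 CPM after knockdown. The lowest sum was that of knockdown replicate 4. Fibronectin (Fn1) was at 1928, 1969 and 2029 CPM in controls and 960, 1083 and 1189 CPM after knockdown. Col3a1, a fibrillar collagen, was at 86.9, 87.9 and 92.2 CPM in controls and 23.2, 28.0 and 29.4 CPM after knockdown and fell by 1.71 (log2; SE 0.06, adjusted p = 1.43e-19). Col5a2 was at 642, 670 and 680 CPM in controls and 271, 290 and 302 CPM after knockdown. Each of the 3 stayed apart from control in all libraries. Col1a1 fell by 1.40 and Col4a3, a basement membrane collagen, by 1.35 on the log2 scale. Rises were found for agrin (Agrn, 0.56) and laminin alpha 4 (Lama4, 0.79). Matricellular and remodelling genes gave 27 falls and 6 rises among 39. Thbs4, a thrombospondin, was at 345, 359 and 372 CPM in controls and 143, 150 and 160 CPM after knockdown, and the aggrecanase Adamts5 and the inhibitor Timp2 fell by 1.61 and 0.72 on the log2 scale. Mmp17, a membrane-anchored protease, rose by 1.35. Of 20 integrin and cadherin genes 13 fell and 5 rose, and Itgb5, Itga3 and Itga1 fell by 0.70, 0.73 and 0.84 on the log2 scale.

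The fibroblast list shares several of these collagens: 8 of 9 tested fell, 0 rose, and 6 of 15 listed genes were too low to be tested. Its sum spanned 1554 to 1593 CPM in controls and 827 to 875 CPM after knockdown, and most of that is vimentin (Vim), at 1304, 1313 and 1338 CPM in controls and 730, 768 and 779 CPM after knockdown. Postn, a marker of activated fibroblasts, was at 2.85, 3.03 and 3.42 CPM in controls and 0.872, 1.12 and 1.29 CPM after knockdown. Neural markers summed to 1619 to 1853 CPM in controls and 741 to 825 CPM after knockdown, nearly all of it peripherin (Prph), an intermediate filament of neurons, at 1572, 1630 and 1809 CPM in controls and 703, 749 and 789 CPM after knockdown. Of 8 tested neural markers 2 rose and 2 fell. Smooth muscle markers gave 4 falls and 1 rise among 9, with sums of 2668 to 2905 and 1858 to 2008 CPM. Markers of endothelium summed to 49.6 to 55.4 CPM and 50.4 to 58.1 CPM, with 7 of 15 tested, 1 rise and 2 falls. Epicardial markers summed to 130 to 146 and 130 to 135 CPM (3 rises and 3 falls among 7). Markers of macrophages and leukocytes summed to no more than 2.75 CPM in any library, and Ptprc, Lyz2 and the T and B cell markers were absent from the table or too low to be tested. Skeletal myogenic markers summed to 31.0 to 34.0 CPM and 29.9 to 31.9 CPM, with Myod1, Myog, Myf5 and Pax7 too low to be tested. Whether other cells in the culture have a part in the falls of matrix genes was not tested.

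Genes of signalling between cells were split. Of 34 Wnt genes 17 fell (50.0%) and 9 rose. Dkk3 was at 429, 450 and 462 CPM in controls and 99.1, 106 and 115 CPM after knockdown and fell by 2.07 (log2; SE 0.04, adjusted p = 5.58e-24). Wif1, which binds Wnt ligands, was at 36.3, 39.7 and 41.0 CPM in controls and 6.88, 7.56 and 9.25 CPM after knockdown, and the receptor gene Fzd1 at 195, 204 and 213 CPM in controls and 77.9, 83.6 and 95.0 CPM after knockdown. Controls and knockdown libraries were apart in all 3, which the rule for the largest falls requires of Dkk3 and Wif1. The median of the Wnt list, -0.11, turned to 0.02 with no filter on low counts. In the Notch pathway 12 of 20 rose (60.0%) and 3 fell. Hes1, a direct target of Notch, was at 11.0, 12.1 and 13.7 CPM in controls and 20.5, 22.6 and 24.6 CPM after knockdown, and Notch1 and the ligand gene Dll1 rose by 0.97 and 1.54 on the log2 scale from control medians of 2.07 and 0.375 CPM. Notch2 fell by 0.38.

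TGF-beta and BMP genes gave 19 falls and 8 rises among 36. Fstl1 was at 512, 542 and 557 CPM in controls and 290, 299 and 315 CPM after knockdown. Inhba, an activin subunit, and Bmp4 fell by 1.16 and 1.03, and the coreceptor gene Tgfbr3 and the ligand gene Tgfb3 rose by 1.05 and 0.43 on the log2 scale. In the IGF and insulin list 15 of 29 fell and 7 rose. Igfbp5, an IGF binding protein, had its highest control library at 53.5 CPM and fell by 1.72 (log2; SE 0.06, adjusted p = 3.49e-19), and Irs2, an insulin receptor substrate, rose by 0.33 on the log2 scale. Angiogenic and hypoxia genes gave 17 falls and 4 rises among 29, led by Angpt1, which was at 29.7, 35.9 and 41.7 CPM in controls and 6.17, 6.75 and 7.13 CPM after knockdown. Pdgfa and Pdgfb fell by 0.67 and 0.71 on the log2 scale.

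Thyroid hormone genes were lower in 9 of 14 tested and higher in 3. Dio2, the deiodinase that makes the active hormone, was at 25.0, 26.7 and 29.6 CPM in controls and 6.28, 6.87 and 7.19 CPM after knockdown and fell by 1.98 (log2; SE 0.06, adjusted p = 5.61e-21). The partner receptor gene Rxrg fell by 1.17 on the log2 scale, beside the fall of Thra given above. Slc16a10 passed as a rise of 0.08, which turned to -0.05 with the authors' scaling factors. Its call was lost without knockdown replicate 1 or control replicate 1, 2 or 3 (adjusted p = 0.0604 to 0.0758 in edgeR's test). In the circadian clock 8 of 21 fell and 5 rose. The repressor gene Nr1d1 and the output genes Dbp and Tef fell by 0.78, 1.12 and 0.47, and Arntl, Nfil3 and Rora rose by 0.21, 0.54 and 0.67 on the log2 scale.

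**Figure D4:**
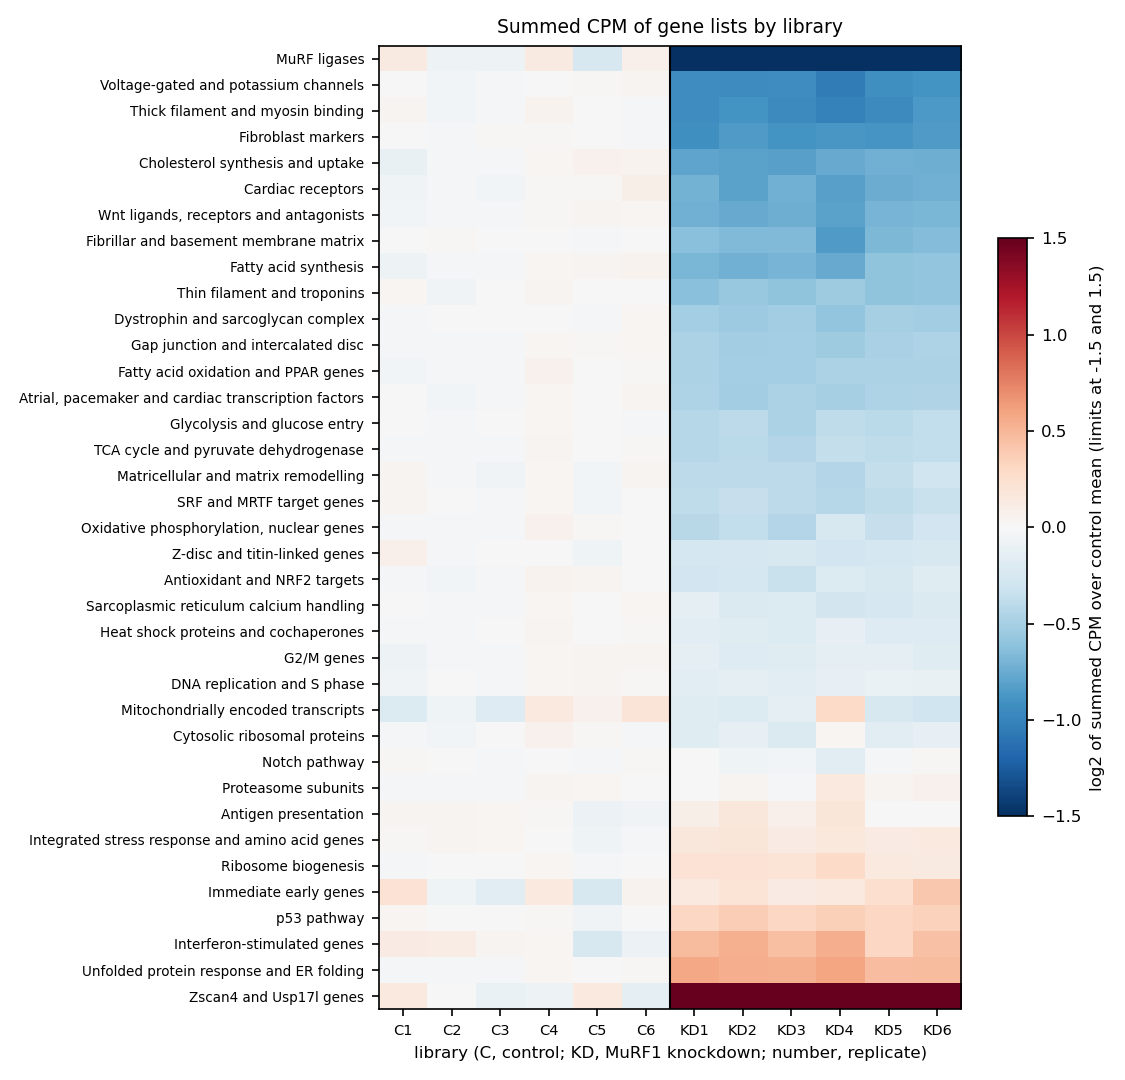
Log2 of the summed CPM of 37 gene lists in each of the 12 unstretched libraries over the mean of the 6 controls (colour), lists in rows and libraries in columns. Colours stop at -1.5 and 1.5. All 6 knockdown libraries lie on the same side for the thin filament, cholesterol, ER folding and interferon lists, while the mitochondrially encoded list is mixed and highest in knockdown replicate 4.

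The Zscan4 and Usp17l genes rose as a block. Zscan4 genes are known markers of a rare state of mouse embryonic stem cells and of the embryo at the time its genome is switched on. All 10 tested members of this list rose, with a median log2 fold change of 2.08, and their sum spanned 14.1 to 17.2 CPM in controls and 59.4 to 74.8 CPM after knockdown. Zscan4f (chr7:11397915-11402318 on GRCm38) was at 2.90, 4.01 and 4.47 CPM in controls and 16.8, 17.9 and 21.8 CPM after knockdown and rose by 2.27 (log2; SE 0.11, adjusted p = 1.85e-15). Zscan4c, Zscan4d, Zscan4e and Zscan4b, which lie in the same cluster between 10900740 and 11310682 on chromosome 7, rose by 1.99 to 2.14 on the log2 scale. Members are near-identical copies, so how reads were split between them is uncertain and they are not independent of each other. Of 12 tested Hox genes 3 rose and 1 fell: Hoxa5, Hoxa6 and Hoxa7 rose by 0.51, 0.60 and 0.63, and Hoxa13 fell by 0.51 on the log2 scale. Hoxa7 was low with overlapping groups, at 0.756 to 1.26 CPM in controls and 0.834 to 1.94 CPM after knockdown. Replication-dependent histone genes gave 2 rises and 3 falls among 29, and 10 rises without control_stretched replicate 5; their transcripts lack poly(A) tails and are caught poorly by a poly(A) kit.

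The same contrast in the stretched cells shares no library with the one above. There 7494 genes passed the test (52.0%). Both contrasts called 6630 genes, 6625 of them in the same direction, while 1695 passed only without stretch and 864 only with it. Passing in one contrast alone does not show a difference, and the difference itself was tested as an interaction. It was called for 3 of 14411 genes (0.0208%), with 1355 at an unadjusted p under 0.05. Fosb, an immediate early gene chosen here after its values were seen, had log2 fold changes of 0.18 without and 2.05 with stretch, and its interaction was 1.87 (SE 0.28, adjusted p = 0.0181). Dkk3 had -2.07 without and -1.76 with stretch (interaction 0.31, SE 0.06, adjusted p = 0.0301). Pdzd2, a PDZ protein gene, had -1.88 without and -1.50 with stretch (interaction 0.38, SE 0.07, adjusted p = 0.0222). Without stretch Pdzd2 was at 228, 235 and 241 CPM in controls and 55.1, 64.4 and 68.2 CPM after knockdown. For Dkk3 and Pdzd2 the fall was thus smaller in stretched cells, and the Fosb difference was the larger one there. Next in order of the interaction among genes called without stretch came Atp2b4, Zfp36l1 and Adgrg1, at adjusted p = 0.0579, 0.0579 and 0.0619. The number of interaction calls ranged from 0 without control replicate 6 to 122 with DESeq2's Wald test. It was 109 without control_stretched replicate 5, a library with 23564195 counts and a mitochondrial level of 1.40% of its scaled size.

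Of the 812 genes that changed more than 2-fold without stretch, 650 had a smaller change with stretch, with median sizes of 1.40 and 1.20 on the log2 scale. Those genes were picked on the first value, which favours a smaller second one. Read the other way, of 659 genes past 2-fold with stretch 402 were larger without it. Side by side, thin filament genes had a median log2 fold change of -0.64 without and -0.58 with stretch, cholesterol genes -0.76 and -0.67, ER folding genes 0.38 and 0.38, and interferon-stimulated genes 0.60 and 0.49. Immediate early genes had 0.03 and 0.35. Trim63 itself had -3.52 and -3.51.

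**Figure D5:**
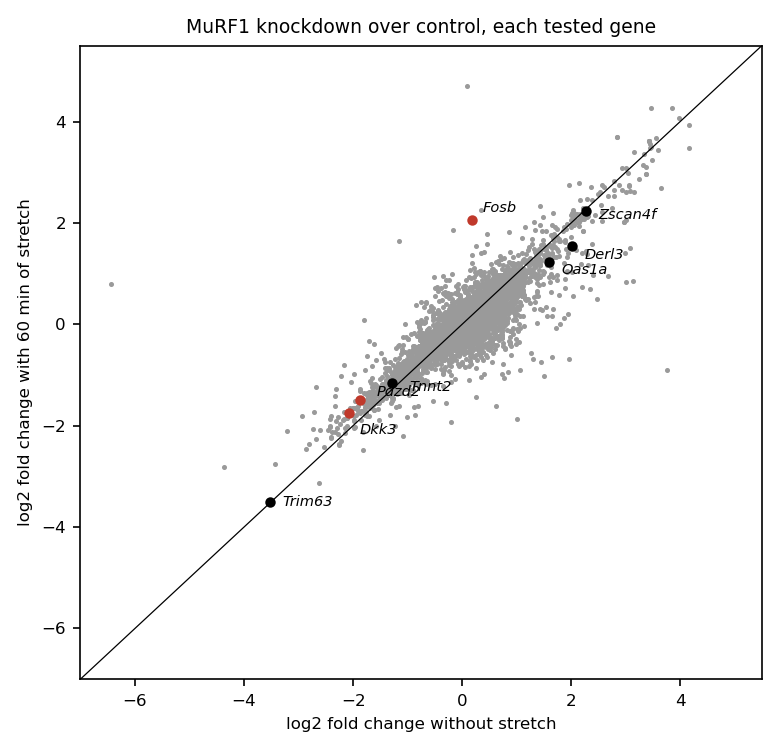
Log2 fold change of knockdown over control without stretch (horizontal axis) against that with 60 min of stretch (vertical axis), 1 point for each of 14411 tested genes; the line marks equal values. Red points are the 3 genes with a called interaction, Fosb, Dkk3 and Pdzd2, and black points other named genes, such as Trim63 at -3.52 and -3.51.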

How the data were processed

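Poly(A) RNA of 24 libraries of HL-1 cells was sequenced after TRIzol extraction with a stranded kit, per the labels' protocols. GRCm38.p6, kallisto 0.44.0, R 3.4.4 and DESeq2 1.18.1 stand in the submitters' processing notes. The deposited table of estimated counts per gene is not normalized, and 36.6% of its values are whole within 1e-09. A second deposited table holds the authors' normalized signal, which served as a check of Trim63 and as the source of the authors' scaling factors. Which annotation release and strand setting the counting used is not given in the sources used here. Columns of other samples numbered 0, and rows naming no gene 0.

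Estimated counts were rounded to whole numbers. With edgeR 4.0.16 under R 4.3.3, 14411 of 20351 genes passed filterByExpr (minimum count 10, minimum total 15), libraries were scaled by TMM, and 1 quasi-likelihood fit over all 4 groups of 6 (20 residual degrees of freedom) gave the knockdown contrast without stretch, the same with stretch, and their difference. P-values were Benjamini-Hochberg adjusted over all tested genes, with a threshold of 0.05. A gene that passed the filter through its higher group alone had to differ. List counts cover tested members only, and such genes remain among them, so calls of genes near the filter are favoured. The procedure was tested on simulated data with known changes in far fewer genes than were called here. That test does not cover a shift of this breadth.

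The 63 gene lists, the members and the rule for named genes were chosen with earlier results of these data known. The rule names the MuRF genes and cardiomyocyte markers, the 15 largest rises and 15 largest falls with log2 CPM averaging 2 or more, groups that do not overlap and a symbol that is not a clone or model name, the 10 largest gains and 10 largest losses of mean CPM, up to 4 called members of each list per direction by adjusted p, and 5 genes by the interaction. Over the 30 pairs of unstretched libraries within a group the chi-square per gene was 2.94 to 29.0, and 0 pairs were identical. Alternatives were DESeq2 1.42.0 (size factors and Wald test), limma 3.58.1 (voom), no filter and a stricter one, only the 2 groups compared, a block for the replicate number or for the code letter, the authors' factors, removal of GC content and length (known for 92.9% of tested genes), and leaving out each library. Promoters of 250 bases came from RefSeq on GRCm38.p6. Some genes that the rule names are not reported here.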

Additional observations from a re-analysis of the deposited data

Results flagged for a closer look

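Each of the 280 named genes and 8 list sums was checked in both unstretched groups for a library far from the other 5 (Dixon's test at its 95% critical value), and 32 of 576 such checks (5.56%) found one. Chance alone gives about 1 in 20. Of the 32, 17 were in knockdown replicate 4, which also stood apart in the principal components. There the sum of mitochondrially encoded transcripts was 36029 CPM and that of the matrix list 6283 CPM. Its levels were the highest of the group for B2m (2486 CPM), Eef1a1 (5581 CPM), Hsp90aa1 (1409 CPM), Pdia6 (693 CPM), Xbp1 (124 CPM), Gbe1 (68.2 CPM), Pln (50.3 CPM) and Psma3 (23.5 CPM). They were the lowest for Cs (339 CPM), Notch2 (135 CPM), Scap (68.1 CPM), Bcl2l1 (28.2 CPM), Cacna1c (23.1 CPM), Dysf (17.5 CPM) and Asb2 (10.0 CPM). The lead lists had the same direction without this library: thin filament genes 1 rise and 19 falls, channels 3 and 15, cholesterol genes 3 and 28, matrix genes 5 and 28, ribosome assembly genes 28 and 1, ER folding genes 23 and 0, interferon-stimulated genes 36 and 1, and p53 genes 19 and 5.

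Elsewhere a knockdown library was the highest for Calr (1760 CPM, replicate 1), Derl3 (9.73 CPM, replicate 3) and Jun (112 CPM, replicate 6), and the lowest for Ak4 (12.0 CPM, replicate 3) and Spry2 (13.2 CPM, replicate 1). Control libraries stood out as the highest for Prph (1809 CPM) in replicate 5, Cnn2 (270 CPM) in replicate 1 and Hoxa13 (8.84 CPM) in replicate 6. Controls were the lowest for Fads1 (631 CPM) and Ddit4 (51.9 CPM) in replicate 1, Hand2 (482 CPM), Igfbp5 (48.8 CPM) and Gpx1 (39.2 CPM) in replicate 2, Myocd (75.2 CPM) in replicate 5 and E2f2 (49.9 CPM) in replicate 6.

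The knockdown effect differed between stretched and unstretched cells by the interaction term of edgeR's test for Fosb (1.87 on the log2 scale), Pdzd2 (0.38) and Dkk3 (0.31).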

How the results depend on the processing

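The number of genes called without stretch, 8325, was 7974 to 8334 when 1 library was left out and 7870 to 8888 under the other settings. Rises ran from 3839 to 4881 and falls from 3691 to 4532 over all of them. The drop of Trim63 was 91.1% to 91.6% with single libraries left out and 91.2% in the authors' normalized signal. Of 63 lists 44 had more falls than rises, and 40 to 46 did so under the alternatives. The interaction of knockdown and stretch, called for 3 genes, depended on the setting. It was called for 122 genes by DESeq2's Wald test, for 109 without control_stretched replicate 5, for 45 with a code letter block, for 25 after removal of GC content and length, and for 1 with the authors' factors. Leaving out 1 unstretched library gave 0 to 48, among them 48 without knockdown replicate 6, 17 without knockdown replicate 1, 8 without control replicate 2 and 0 without control replicate 6. The cause was not tested.

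With the replicate block 8378 genes were called for knockdown without stretch, 7567 for knockdown with stretch and 9 for the interaction. Correlations of same-numbered libraries ran from -0.0638 to 0.137, 1 of 6 was over 0.1, and 3 of 12 libraries correlated best with their own number. That check takes each number alone and cannot show a difference that several numbers share. In both unstretched groups replicates 1 to 3 lay above replicates 4 to 6 on the second principal component.

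Over 6437 pairs of a named gene and an alternative, 6405 kept direction and side of the threshold, 31 (in 7 genes) kept direction but lost the call, and 1 turned: Slc16a10, at -0.05 with the authors' factors (adjusted p = 0.285 in edgeR's test). The 7 genes were Fkbp1b, Insig2, Kcne1, Neb, Scap, Slc16a10 and Tnrc6b. Counts in some lists moved as well: ribosomal protein falls ran from 14 to 40, mitochondrially encoded falls from 0 to 5 and histone rises from 0 to 10. At this depth 14411 of 20351 genes could be tested. Estimated counts split reads between near-identical copies, which limits the Zscan4, MHC class I and ribosomal protein genes.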
